A study of Mus musculus with 24 samples.

Results

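Transcripts that mark liver sinusoidal endothelial cells were followed in RNA-seq libraries made from isolated hepatocytes of old mice. The 10 genes were taken by name: *Stab1*, *Stab2*, *Clec4g*, *Lyve1*, *Oit3*, *Kdr*, *Fcgr2b*, *Eng*, *Pecam1* and *Dnase1l3*. They are 10 of 55421 genes in the count table, and all 10 were among the 13847 genes with enough counts to test. The libraries came from male C57BL/6 mice (C57BL/6J in the labels) that ate encapsulated rapamycin at 42 ppm (eRapa) or its vehicle from 4 months of age. At 18 months the mice were kept on a normal diet (ND) or moved to a high-fat diet (HFD) with 60% of calories from fat, for 9 weeks. The groups were ND+veh (8 libraries), HFD+veh (7) and HFD+eRapa (9), and the HFD+eRapa mice had eaten rapamycin on the normal diet until the switch. No group was kept on the normal diet with rapamycin to the end, so an effect of rapamycin apart from the HFD could not be measured. The labels number the replicates without naming the mice, so the p-values measure the spread between these libraries.

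Liver sinusoidal endothelial cells line the capillaries between the plates of hepatocytes. Their wall is open through small pores and lacks a firm basement membrane, so that plasma reaches the hepatocytes, and the cells clear macromolecules from blood through scavenger, lectin and Fc receptors. They are small next to hepatocytes. Hepatocytes were separated from them here by collagenase perfusion, slow spins and a Percoll step, so in a preparation labelled hepatocyte these transcripts come with whatever endothelial cells, fragments or RNA passed through. In such bulk libraries fewer endothelial cells and less RNA per cell cannot be told apart.

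The libraries held 17739252 to 25945134 counts on genes, and the scaling factors (TMM, which equalises the bulk of genes between libraries) ran from 0.848 to 1.30. The hepatocyte label was checked on 10 hepatocyte genes. *Alb*, the gene of serum albumin, had a mean of 44557 ± 10497 FPKM in ND+veh (SD, n = 8), 47357 ± 5025 in HFD+veh (n = 7) and 31103 ± 8121 in HFD+eRapa (n = 9). FPKM is the number of fragments per kilobase of transcript, scaled to 1000000 fragments. A pair of libraries stood apart: ND+veh replicate 4 had the largest scaling factor and, within ND+veh, the lowest summed level of the hepatocyte genes (61516 CPM, the counts scaled to a library of 1000000, against 114421 to 165494 in the other 7), and HFD+veh replicate 6 had the highest summed level of macrophage genes of all 24 libraries (5886 CPM). HFD+eRapa replicate 7 had the lowest summed hepatocyte level of all 24 (57401 CPM).

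Each of the 10 genes was detected in every library. The lowest count of any of them was 15, for *Lyve1*, and the lowest count of each other gene lay between 63 (*Pecam1*) and 242 (*Eng*), so counting error was small next to the spread between libraries for all but *Lyve1*. Together they took a median of 0.0346% of all counts in ND+veh, 0.0564% in HFD+veh and 0.0222% in HFD+eRapa, with 0.116% in the highest library.

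Per length, *Clec4g* was the most abundant of the 10, with a median of 26.0 FPKM over the 24 libraries, and *Fcgr2b* followed with 18.1 FPKM. *Clec4g* lay above *Fcgr2b* in 23 of 24 libraries, *Fcgr2b* above *Eng* (10.4 FPKM) in 24, and *Eng* above *Dnase1l3* (7.70 FPKM) in 24. Below these the order was not firm. *Oit3* (6.90 FPKM) was exceeded by *Dnase1l3* in 17 libraries and exceeded *Stab2* (6.22 FPKM) in 16, while *Stab2* lay above *Stab1* (5.24 FPKM) in 12 of 24 and *Stab1* above *Kdr* (5.12 FPKM) in 13. *Kdr* exceeded *Pecam1* (3.72 FPKM) in 18 libraries, and *Pecam1* exceeded *Lyve1* (2.29 FPKM) in 21.

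The upstream sequence of 3 of the genes is shown because members of the group rose and fell together in these libraries and because ETS factors are well known for acting at endothelial promoters. Stellate cell and macrophage transcripts moved with the 10 as well (Pearson's r of log2 summed levels, group means subtracted, 0.951 and 0.950), and a shared factor was not tested. RefSeq promoters were matched for 6 of the 10 genes (*Stab1*, *Stab2*, *Clec4g*, *Kdr*, *Fcgr2b* and *Eng*), and those printed are the 3 whose RefSeq start is also the start of the gene in the GENCODE annotation. Each is the 250 bases before the transcription start on GRCm38.p6 (mm10), 5′ to 3′ on the strand of the gene, and capitals mark AGGAAG or its reverse complement CTTCCT. *Stab1* is on the minus strand at chr14:31168642-31168891, *Clec4g* on the minus strand at chr8:3720652-3720901 and *Eng* on the plus strand at chr2:32646345-32646594.
Stab1: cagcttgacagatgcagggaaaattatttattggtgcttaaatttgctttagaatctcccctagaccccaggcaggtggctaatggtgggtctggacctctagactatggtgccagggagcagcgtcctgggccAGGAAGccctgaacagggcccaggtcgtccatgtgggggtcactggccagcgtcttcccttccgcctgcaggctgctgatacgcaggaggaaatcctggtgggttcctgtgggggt
Clec4g: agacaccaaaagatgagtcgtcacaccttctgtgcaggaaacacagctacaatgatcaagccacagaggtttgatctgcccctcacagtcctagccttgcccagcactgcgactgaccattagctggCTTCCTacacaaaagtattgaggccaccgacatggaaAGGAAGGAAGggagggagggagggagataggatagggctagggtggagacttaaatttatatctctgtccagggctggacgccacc
Eng: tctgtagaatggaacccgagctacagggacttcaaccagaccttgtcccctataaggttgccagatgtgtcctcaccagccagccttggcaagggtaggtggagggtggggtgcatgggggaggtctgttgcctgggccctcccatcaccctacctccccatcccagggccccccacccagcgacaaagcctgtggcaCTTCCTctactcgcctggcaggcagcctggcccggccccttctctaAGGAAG
The letters AGGAAG, searched on both strands, occurred in 4 of the 6 promoters (1 match in *Stab1*, 1 in *Stab2*, 3 in *Clec4g*, of which 2 overlap, and 2 in *Eng*) and in 29.5% of the 32851 promoters of the same length. In *Eng* the nearer match began 6 bases before the start. The GATA letters AGATAA, also searched on both strands and not overlapping AGGAAG, occurred in 0 of the 6 promoters and in 9.99% of all promoters. A match describes the letters only.

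HFD+veh was compared with ND+veh to ask what the high-fat diet did on the vehicle. *Pecam1* was the 1 gene of the 10 that passed the test, and it was higher on the HFD. All 10 fold changes were above 0, with a median of 0.61 on the log2 scale against 0.05 for all genes tested. In this comparison 25.9% of the genes tested were called, 16.0% of them higher and 9.86% lower (shares of all genes tested), so 1 of 10 higher was no more than the background. A fold change below 0, with or without a call, was found for 0 of the 10 and for 45.9% of all genes.

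The scavenger receptors came first in role. *Stab1* (stabilin-1, chromosome 14, 31139013 to 31168641) takes up modified lipoproteins and matrix fragments. Its lowest, median and highest levels were 14.0, 46.5 and 78.1 CPM in ND+veh, 17.8, 59.1 and 130 in HFD+veh, and 7.66, 19.8 and 48.3 in HFD+eRapa. HFD+veh exceeded ND+veh by 0.50 ± 0.44 log2 units (± SE), with an adjusted p of 0.414 (edgeR's quasi-likelihood test with Benjamini-Hochberg adjustment over all genes tested, as throughout). The groups overlapped, and 3 of the 7 HFD+veh libraries lay below the ND+veh median.

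*Stab2* (stabilin-2, chromosome 10, 86841198 to 87008025) is the main clearance receptor for hyaluronan on these cells. Its levels ran from 15.6 through a median of 47.4 to 80.7 CPM in ND+veh, from 17.8 through 81.8 to 117 in HFD+veh, and from 11.2 through 23.9 to 71.1 in HFD+eRapa. The difference between HFD+veh and ND+veh was 0.58 ± 0.44 log2 units (edgeR adjusted p = 0.335), with 4 HFD+veh libraries above every ND+veh library and 3 below the ND+veh median.

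*Fcgr2b*, the inhibitory Fc receptor that clears small immune complexes (chromosome 1, 170958617 to 170976547), showed the widest range of these receptors on the HFD. It lay at 13.6, 38.3 and 85.4 CPM (lowest, median, highest) in ND+veh, at 20.9, 69.7 and 166 in HFD+veh, and at 11.2, 24.3 and 57.4 in HFD+eRapa. Its highest value, 166 CPM, was in HFD+veh replicate 6. The difference from ND+veh was 0.91 ± 0.45 log2 units with an edgeR adjusted p of 0.139.

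The lectin *Clec4g* (LSECtin, chromosome 8, 3707064 to 3720651), a receptor for glycans on pathogens and lymphocytes, was measured at 13.2, 35.0 and 78.1 CPM in ND+veh, 17.7, 60.0 and 112 in HFD+veh, and 10.02, 24.4 and 45.3 in HFD+eRapa. HFD+veh exceeded ND+veh by 0.64 ± 0.41 log2 units (edgeR adjusted p = 0.259), and the groups overlapped.

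*Lyve1*, a hyaluronan receptor of lymphatic and sinusoidal endothelium (chromosome 7, 110850607 to 110863239), is also carried by some tissue macrophages. Its levels were 1.48, 5.06 and 15.9 CPM in ND+veh, 3.75, 16.9 and 58.4 in HFD+veh, and 0.769, 5.44 and 12.3 in HFD+eRapa. The fold change on the HFD was 1.61 ± 0.65 log2 units, the largest of the 10, but its edgeR adjusted p was 0.0671. Its 4 highest HFD+veh libraries lay above every ND+veh library, and 2 lay below the ND+veh median.

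*Oit3*, which encodes a protein with a zona pellucida domain (chromosome 10, 59422958 to 59441778), lay at 7.09, 21.9 and 42.8 CPM in ND+veh, 10.4, 39.7 and 77.7 in HFD+veh, and 6.19, 13.9 and 38.4 in HFD+eRapa. *Dnase1l3*, a secreted enzyme that digests DNA in chromatin (chromosome 14, 7964533 to 7994573), lay at 17.8, 49.1 and 78.6 CPM in ND+veh, 23.97, 72.2 and 130 in HFD+veh, and 13.3, 27.3 and 41.8 in HFD+eRapa. In HFD+veh against ND+veh neither passed the edgeR test: *Oit3* differed by 0.80 ± 0.47 log2 units (adjusted p = 0.203) and *Dnase1l3* by 0.49 ± 0.37 (adjusted p = 0.333).

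*Kdr* encodes VEGF receptor 2 (chromosome 5, 75932827 to 75978458), through which VEGF keeps the sinusoidal cells differentiated. It lay at 14.2, 41.7 and 72.5 CPM in ND+veh, 18.7, 61.8 and 103 in HFD+veh, and 12.5, 27.8 and 59.4 in HFD+eRapa. The difference on the HFD was 0.57 ± 0.40 log2 units (edgeR adjusted p = 0.298).

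*Eng* (endoglin, chromosome 2, 32646595 to 32682669) is a co-receptor for BMP9 and TGF-beta. It lay at 21.7, 50.4 and 85.6 CPM in ND+veh, 20.5, 64.6 and 134 in HFD+veh, and 13.6, 22.3 and 45.4 in HFD+eRapa. Its difference on the HFD was the smallest of the 10, at 0.27 ± 0.37 log2 units (edgeR adjusted p = 0.608), and it was -0.04 when HFD+veh replicate 4 was left out. *Eng* overlaps *Fpgs* on the opposite strand, which held 64702 counts over the 24 libraries, and *Stab1* overlaps *Nt5dc2* in the same way (2269 counts). The strand setting of the counting was not given in the sources used here, so reads of these pairs may not have been told apart and the values of *Eng* are uncertain to that extent.

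*Pecam1* (CD31, chromosome 11, 106654217 to 106750628), an adhesion molecule at the junctions of all endothelial cells that leukocytes and platelets also carry, lay at 3.92, 13.7 and 28.0 CPM in ND+veh, 10.2, 43.3 and 79.3 in HFD+veh, and 3.83, 10.7 and 34.5 in HFD+eRapa. It rose on the HFD by 1.41 ± 0.50 log2 units (edgeR adjusted p = 0.0415), with 5 of 7 HFD+veh libraries above the ND+veh median and 4 above every ND+veh library. The call was lost when any one of 10 libraries was left out: ND+veh replicate 1, 2, 3, 4, 5 or 7 (1.21 to 1.42, adjusted p 0.0578 to 0.0871) or HFD+veh replicate 3, 4, 5 or 6 (1.09 to 1.39, adjusted p 0.0595 to 0.140).

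**Figure D1:**
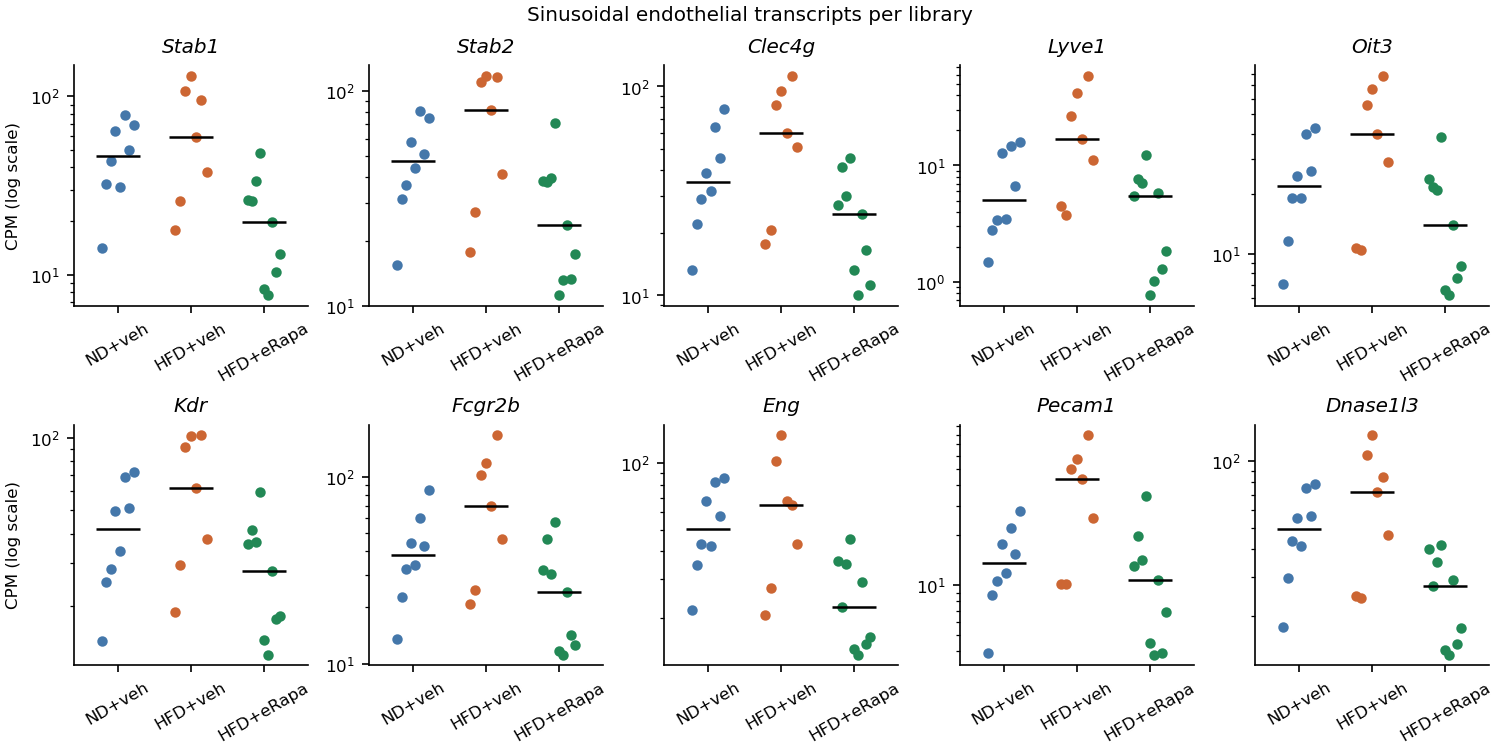
Level of each of the 10 genes (CPM, log axis) in the 8 ND+veh, 7 HFD+veh and 9 HFD+eRapa libraries, 1 point per library in the order of the replicate numbers, with a bar at the group median. In each panel HFD+veh holds the highest library and a pair of low ones (replicates 1 and 2), and all 9 HFD+eRapa libraries lie below the HFD+veh median.

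HFD+eRapa was compared with HFD+veh to ask what rapamycin changed on the high-fat diet. All 10 genes fell. In this comparison 32.0% of genes tested were called, 21.1% lower and 10.9% higher, so 10 of 10 lower stood above the background share of lower calls. The median fold change of the 10 was -1.40 on the log2 scale, against -0.04 for all genes tested, and 10 of 10 were below 0 where 53.2% of all genes were. The 10 genes moved together within the groups (pairwise r of 0.900 to 0.985), so in each comparison they are not 10 separate observations to set against these shares. The comparison of HFD+eRapa with HFD+veh shares its HFD+veh libraries with the one above.

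*Lyve1* fell most, with -2.28 ± 0.64 log2 units (edgeR adjusted p = 0.00914), and *Kdr* least, with -1.11 ± 0.39 (adjusted p = 0.0312). Among the scavenger and Fc receptors *Stab1* changed by -1.65 ± 0.43 (adjusted p = 0.00658), *Stab2* by -1.31 ± 0.42 (adjusted p = 0.0220) and *Fcgr2b* by -1.56 ± 0.44 (adjusted p = 0.0101). *Clec4g* changed by -1.36 ± 0.40 (adjusted p = 0.0131) and *Pecam1* by -1.67 ± 0.49 (adjusted p = 0.0120). *Dnase1l3* changed by -1.43 ± 0.36 (adjusted p = 0.00515), *Eng* by -1.37 ± 0.36 (adjusted p = 0.00620) and *Oit3* by -1.34 ± 0.45 (adjusted p = 0.0277). All of these are from the edgeR fit.

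The groups nevertheless overlapped for every gene. Complete separation was found for 0 of the 10 genes and for 2.59% of all genes tested, and also for 0 of the 10 in HFD+veh against ND+veh (2.44% of all genes). For all 10 genes each of the 9 HFD+eRapa libraries lay below the HFD+veh median, and 4 of them lay below the lowest HFD+veh library. Of the 7 HFD+veh libraries, 5 lay above every HFD+eRapa library for *Clec4g* and *Dnase1l3* and 4 did so for the other 8 genes. The HFD+veh libraries that lay among the HFD+eRapa values were replicates 1 and 2, and for 8 genes replicate 7.

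The summed level of the 10 genes shows the same order of libraries. It ran from 123 through a median of 347 to 631 CPM in ND+veh, from 163 through 571 to 994 in HFD+veh, and from 92.6 through 209 to 454 in HFD+eRapa. The ratio of medians was 1.65 for HFD+veh over ND+veh, 0.365 for HFD+eRapa over HFD+veh and 0.601 for HFD+eRapa over ND+veh. Within a group the highest library exceeded the lowest by 5.14 times in ND+veh, 6.08 times in HFD+veh and 4.90 times in HFD+eRapa, so the spread inside each group was wider than any difference between the group medians.

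The number of calls depended on a few libraries. Lower calls over all genes tested varied as well, from 2925 of 13847 with all libraries to 2037 of 13910 without HFD+veh replicate 6. They were 2303 of 13914 without HFD+veh replicate 3 and 2305 of 13888 without replicate 4. With both ND+veh replicate 4 and HFD+veh replicate 6 left out they were 1998 of 13791. Without HFD+veh replicate 6, 4 genes were called lower (*Stab1*, *Lyve1*, *Eng* and *Dnase1l3*), and the other 6 had edgeR adjusted p from 0.0506 to 0.106. Without HFD+veh replicate 3 or 4, 7 genes were called, and *Kdr*, *Oit3* and *Stab2* were not. The log2 fold changes of these 10 genes stayed below 0 in each of the 24 fits that left out 1 library, between -2.60 and -0.91. All 10 genes were called lower without HFD+eRapa replicate 7, the library lowest for hepatocyte genes. Without HFD+eRapa replicate 5, 6 or 8, 8 genes were called lower, and without replicate 9 there were 9. Replicates 5, 6, 8 and 9 held the lowest summed levels of the 10 genes in HFD+eRapa (92.6 to 124 CPM, against 209 to 454 in the rest). limma voom with a weight per group called 6 genes in place of 10. With both ND+veh replicate 4 and HFD+veh replicate 6 left out, *Eng* (-1.31, adjusted p = 0.0184), *Lyve1* (-1.79, adjusted p = 0.0448), *Dnase1l3* (-1.31, adjusted p = 0.0186) and *Stab1* (-1.47, adjusted p = 0.0247) were called in edgeR, while the median of the 10 was -1.25.

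HFD+eRapa was also compared with ND+veh, to place the treated animals against the normal diet. *Eng* was the 1 gene called, at -1.10 ± 0.35 log2 units (edgeR adjusted p = 0.0363), with 9 of 9 HFD+eRapa libraries below the ND+veh median and 4 of 8 ND+veh libraries above every HFD+eRapa library. Of all genes tested 13.5% were called, 6.54% lower and 6.93% higher, so 1 of 10 lower was close to the background. All 10 fold changes were below 0 (54.7% of all genes), with a median of -0.70 against -0.03 for all genes tested. Complete separation was found for 0 of the 10 and for 3.37% of all genes.

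The next in size were *Stab1* at -1.15 ± 0.42 (edgeR adjusted p = 0.0734) and *Dnase1l3* at -0.94 ± 0.35 (adjusted p = 0.0765). *Dnase1l3* lay below the ND+veh median in 9 of 9 HFD+eRapa libraries and *Stab1* in 8 of 9. *Stab2* differed by -0.73 ± 0.41 (adjusted p = 0.276), *Clec4g* by -0.73 ± 0.39 (adjusted p = 0.250) and *Lyve1* by -0.67 ± 0.61 (adjusted p = 0.541). *Fcgr2b* differed by -0.65 ± 0.43 (adjusted p = 0.362), *Kdr* by -0.55 ± 0.37 (adjusted p = 0.387) and *Oit3* by -0.53 ± 0.44 (adjusted p = 0.489). *Pecam1* had the smallest difference, -0.26 ± 0.47 (adjusted p = 0.798), and 1 HFD+eRapa library exceeded every ND+veh library for it. The SEs of these genes do not show that the groups were alike. The call of *Eng* was lost without ND+veh replicate 4, 6, 7 or 8 or HFD+eRapa replicate 2, 5, 6, 8 or 9 (-1.09 to -0.98, adjusted p 0.0546 to 0.0818).

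The 10 genes moved together among the libraries of a group. After the group means of log2 CPM were subtracted, Pearson's r of the 45 pairs over the 24 libraries ran from 0.900 (*Eng* with *Pecam1*) to 0.985 (*Clec4g* with *Fcgr2b*), with a median of 0.960, and Spearman's rho from 0.875 to 0.988. The points of a pair share their library, its depth and its scaling. Of the genes outside the group with a mean log2 CPM of at least 3, those with the highest mean r with the 10 were *Ptprb* (0.964), an endothelial phosphatase, *Vim* (0.963), the mesenchymal intermediate filament, *Aqp1* (0.962), a water channel of endothelium, *Itga9* (0.961), an integrin subunit, and *Marcks* (0.958), a membrane protein that binds actin.

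Transcripts of other cells in the liver moved with the 10 genes. The summed level of the 10 and of each list was compared in the same way, over 24 libraries that share depth and scaling. Pearson's r was 0.975 with 18 reference endothelial genes, 0.951 with 10 stellate cell genes, 0.950 with 12 Kupffer cell and macrophage genes and 0.910 with 7 neutrophil genes. It was -0.07 with 10 hepatocyte genes and 0.277 with the total count. The macrophage list fell in 10 of 12 genes in HFD+eRapa against HFD+veh (median -2.72) and rose in 4 of 12 in HFD+veh against ND+veh (median 2.09). Its summed level lay between 52.4 and 1569 CPM in ND+veh (median 297), between 198 and 5886 in HFD+veh (median 2960) and between 19.4 and 1230 in HFD+eRapa (median 236), and no gene of it was at 0 in all libraries of a group. With the log2 summed CPM of the macrophage, lymphocyte and neutrophil lists as a covariate in edgeR, 0 of the 10 sinusoidal genes were called in HFD+eRapa against HFD+veh (0 also at an unadjusted p under 0.05, values -0.28 to 0.21, median -0.08 in place of -1.40). In the same fit 5 were lower in HFD+eRapa against ND+veh: *Stab1* (-0.92), *Eng* (-0.82), *Dnase1l3* (-0.66), *Stab2* (-0.48) and *Clec4g* (-0.41). Of the 13847 genes tested, this fit called 505 lower and 411 higher in HFD+eRapa against HFD+veh. In HFD+eRapa against ND+veh it called 1406 lower and 1198 higher.

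The stellate cell list fell in 10 of 10 genes in HFD+eRapa against HFD+veh (median -2.09) and in 7 of 10 against ND+veh (median -1.64), and rose in 2 of 10 in HFD+veh against ND+veh (median 0.51). No fit with the stellate level as a covariate was run. The levels used as covariates, immune above and reference endothelial below, themselves differed between the groups. They also moved with the 10 genes (r = 0.950 for the macrophage list and 0.975 for the reference list). A covariate of that kind takes up the group difference, so the part of any cell type in the result was not tested. The summed level of the stellate list was 45.9 to 314 CPM in ND+veh (median 164), 44.0 to 542 in HFD+veh (median 184) and 26.0 to 104 in HFD+eRapa (median 54.6). The neutrophil list ran from 0.227 to 7.11 CPM in ND+veh, 1.77 to 44.9 in HFD+veh and 0.0563 to 13.3 in HFD+eRapa, and its defining gene *Ly6g* was at 0 in all ND+veh and HFD+eRapa libraries. Of its 4 genes tested, 2 rose on the HFD and 2 fell with eRapa on the HFD. Of 10 lymphocyte genes 2 had enough counts, and *Cd79b* rose on the HFD with vehicle (2.46) and fell with eRapa (-3.31). All 3 cholangiocyte genes tested rose on the HFD with vehicle, led by *Spp1* (5.31), which other liver cells also make, and *Spp1* fell with eRapa (-2.67) while staying above ND+veh (2.64). Of the 10 hepatocyte genes *Apoa1* was called, lower on the HFD with vehicle (-0.68) and higher with eRapa (0.71). HFD+veh replicates 1 and 2, the lowest for the 10 genes, were also the lowest of their group for the macrophage list (198 and 199 CPM, against 1082 to 5886 in the other 5).

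**Figure D2:**
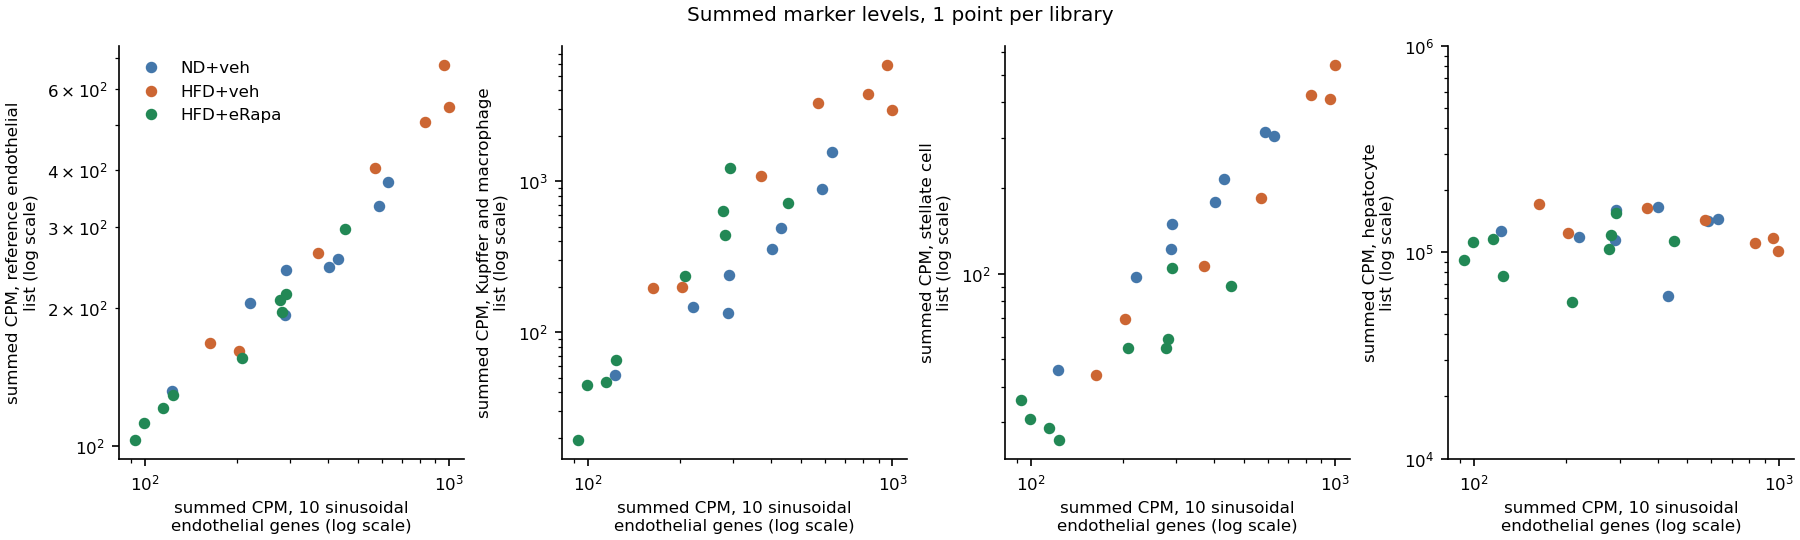
Summed CPM of the 10 sinusoidal endothelial genes (horizontal, log axis) against that of the reference endothelial, Kupffer and macrophage, stellate cell and hepatocyte lists (vertical, log axes), with 1 point per library colored by group. The first 3 lists climb with the 10 genes (r = 0.975, 0.950 and 0.951), and the hepatocyte list does not (r = -0.07). These r values are of log2 sums after group means were subtracted, which the points are not.

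Endothelial genes outside the group were then used as a yardstick. The reference list holds 18 genes of endothelium in general, such as *Cdh5*, *Tek* and *Tie1*. With eRapa on the HFD 17 of 18 fell (median -1.36), with *Icam2* (-1.99), *Cdh5* (-1.90) and *Mmrn2* (-1.81) moving most. On the HFD alone 3 rose (*Ecscr* 1.60, *Emcn* 1.59 and *Icam2* 1.51) and *S1pr1* fell (-0.50), and the list median was 0.84. Between HFD+eRapa and ND+veh edgeR called 0 of 18 (4 at an unadjusted p under 0.05), with a median of -0.43. *S1pr1*, a sphingosine phosphate receptor and the most abundant of the list, at 14.8 to 21.2 FPKM in the group means, was the exception in HFD+eRapa against HFD+veh (0.10, adjusted p = 0.651).

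With the log2 summed CPM of the reference list as a covariate in edgeR, 0 of the 10 genes were called in HFD+eRapa against HFD+veh. Their fold changes ran from -0.04 to 0.46. Of the 13847 genes tested, that fit called 441 lower and 314 higher in this comparison, so 0 of 10 was close to the background. At an unadjusted p under 0.05 there were 3 of the 10. These SEs do not show that the 10 and the other endothelial transcripts fell alike. The HFD+veh against ND+veh comparison also gave 0 calls (4 at an unadjusted p under 0.05), with *Pecam1* highest at 0.38 ± 0.14 (adjusted p = 0.0747) and *Eng* lowest at -0.45 ± 0.17 (adjusted p = 0.0707). Over all genes tested, 1014 were called higher and 895 lower in that comparison. Against ND+veh, HFD+eRapa was higher by 0.52 ± 0.14 for *Pecam1* (adjusted p = 0.00780) and lower for *Eng* (-0.45 ± 0.16, adjusted p = 0.0432) and *Stab1* (-0.45 ± 0.16, adjusted p = 0.0449). Of all genes tested, 1713 were called higher and 1622 lower there. Because *S1pr1* did not follow the list, the covariate was also built without it, a choice made after seeing the data.

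Without *S1pr1* in the covariate the edgeR fit called 4 genes in HFD+veh against ND+veh: *Pecam1* was higher (0.34 ± 0.10, adjusted p = 0.0324), and *Stab1* (-0.45 ± 0.14, adjusted p = 0.0296), *Stab2* (-0.37 ± 0.11, adjusted p = 0.0261) and *Eng* (-0.47 ± 0.15, adjusted p = 0.0383) were lower. For HFD+eRapa against ND+veh it called *Pecam1* higher (0.32 ± 0.10, adjusted p = 0.0198) and *Stab1* (-0.62 ± 0.13, adjusted p = 0.000985), *Eng* (-0.59 ± 0.14, adjusted p = 0.00371) and *Dnase1l3* (-0.40 ± 0.11, adjusted p = 0.0137) lower. It called 0 of 10 in HFD+eRapa against HFD+veh, from -0.17 to 0.31. Of the 13847 genes tested, this fit called 1040 higher and 903 lower in HFD+veh against ND+veh. In HFD+eRapa against ND+veh it called 1516 higher and 1462 lower, and in HFD+eRapa against HFD+veh 379 higher and 475 lower. Above ND+veh for *Pecam1* and below it for *Stab1* and *Eng*, HFD+eRapa was called with either covariate, and HFD+veh only with the one built without *S1pr1* after seeing the data. These 2 comparisons share their ND+veh libraries.

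**Figure D3:**
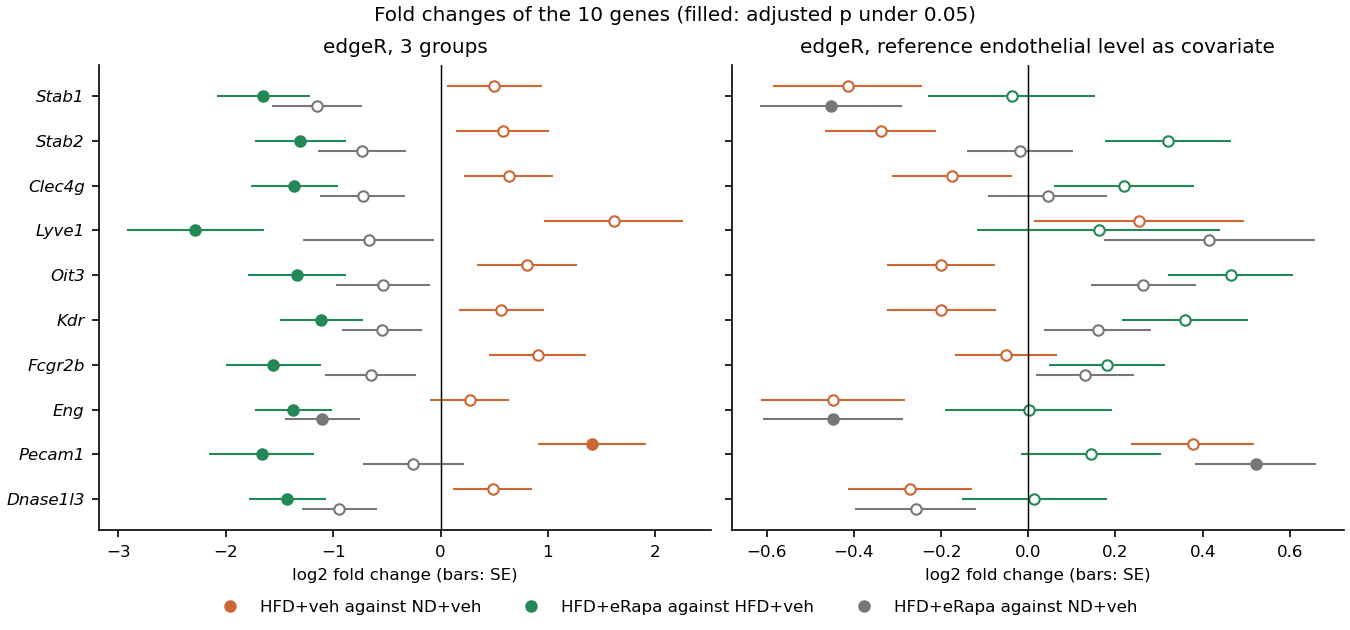
Log2 fold change (points) and SE (bars) of the 10 genes in the 3 comparisons, from edgeR without a covariate (left) and with the reference endothelial level as a covariate (right), with filled points where the adjusted p was under 0.05. On the left the 10 green points (HFD+eRapa against HFD+veh) are all filled and lie between -2.28 and -1.11, and on the right none is filled and they lie between -0.04 and 0.46.

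The share of each gene in the summed CPM of the 10 showed the same uneven change without a model. *Pecam1* held 3.19 to 4.43% in ND+veh and 4.99 to 8.28% in HFD+veh, so that the groups did not overlap, and 3.39 to 7.61% in HFD+eRapa. *Eng* held 13.6 to 17.7% in ND+veh and 6.75 to 13.5% in HFD+veh, again without overlap, and 7.65 to 14.7% in HFD+eRapa. These were 2 of the 10 genes, and 0.664% of all genes tested had a level relative to the summed CPM of the 10 that did not overlap between these groups. The 10 genes form this sum and moved with it, while a gene that did not would take on its wide spread. The 0.664% is therefore not a like background for the 10.

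*Kdr* was the 1 gene whose share in HFD+eRapa (13.0 to 15.3%) lay wholly above ND+veh (9.87 to 12.6%), against 0.809% of all genes for which these groups did not overlap. It held 10.2 to 14.4% in HFD+veh. *Stab1* held a median of 12.9% in ND+veh, 10.9% in HFD+veh and 9.42% in HFD+eRapa, with overlapping ranges. Between HFD+eRapa and HFD+veh 0 of the 10 shares separated, against 0.780% of all genes. For the reason given above, the 0.809% and 0.780% are not like backgrounds for the 10 either. Shares of one sum are tied to each other, so a rise of one gene lowers the rest.

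**Figure D4:**
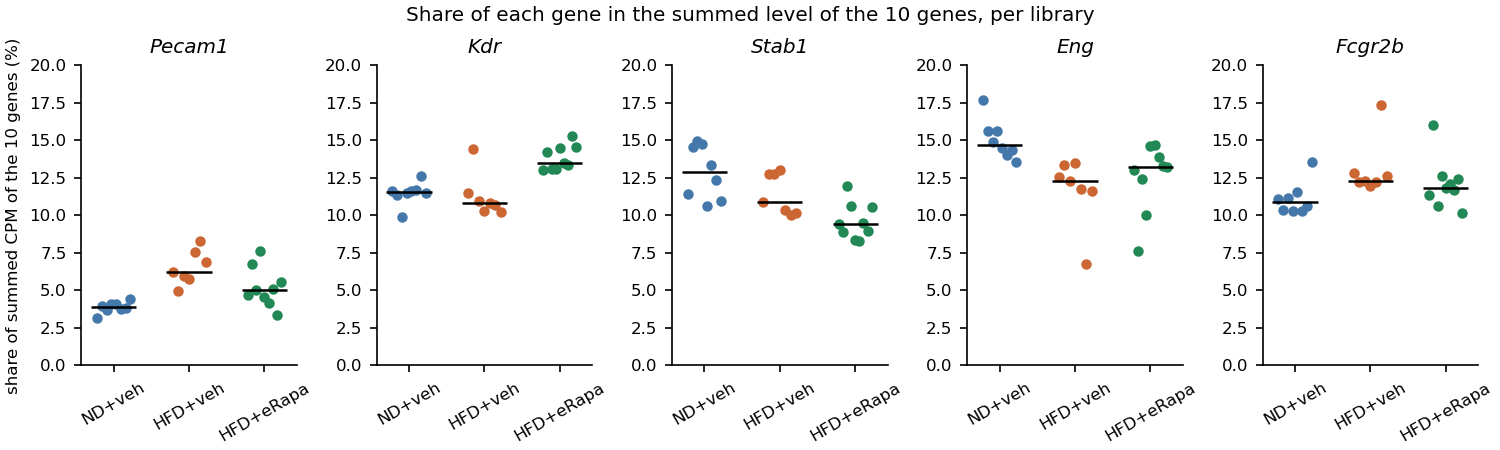
Share of *Pecam1*, *Kdr*, *Stab1*, *Eng* and *Fcgr2b* in the summed CPM of the 10 genes (percent), 1 point per library in each group, with a bar at the median. *Pecam1* in HFD+veh (4.99 to 8.28%) lies above ND+veh (3.19 to 4.43%), and *Kdr* in HFD+eRapa (13.0 to 15.3%) above ND+veh (9.87 to 12.6%).

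Other genes of the sinusoid and of the signals that reach it were read from the same edgeR fit. For these lists and those above, the background is the share of all genes called. It was 16.0% higher and 9.86% lower in HFD+veh against ND+veh, and 10.9% and 21.1% in HFD+eRapa against HFD+veh. In HFD+eRapa against ND+veh it was 6.93% and 6.54%. Counts such as 2 of 14 or 1 of 7 higher on the HFD were close to that background. Of 14 further sinusoidal genes tested, 9 fell with eRapa on the HFD (median -1.23), led by *Il1a* (-2.52), *Tfec* (-2.50) and *Mrc1* (-2.25), the mannose receptor that macrophages also carry. *Il1a* and *Tfec* were low, with medians of 1.58 and 1.16 CPM in ND+veh and 1.53 and 0.906 CPM in HFD+eRapa. Between HFD+veh and ND+veh 2 of the 14 were higher (*Tfec* 2.29 and *Il1a* 2.19) and 1 lower, and HFD+eRapa against ND+veh gave 0 calls (6 at an unadjusted p under 0.05). *Gata4*, the transcription factor of the sinusoidal program that stellate cells also express, did not pass the test in HFD+eRapa against HFD+veh (0.00, adjusted p = 0.993) and fell on the HFD with vehicle (-0.46, adjusted p = 0.0442). Its range in ND+veh, 18.5 to 28.2 CPM, was narrower than that of each of the 10 genes, and which cells it came from was not tested.

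Around *Kdr* and *Eng*, 14 ligands, receptors and targets of the VEGF and BMP9 pathways were tested. With eRapa on the HFD 5 fell and 1 rose. The ligands *Gdf2* (BMP9, -2.42, adjusted p = 0.00126) and *Bmp10* (-2.34, adjusted p = 0.00472), which stellate cells are known to make, and the receptor *Acvrl1* (-2.25, adjusted p = 0.00500), the signaling partner of endoglin, fell most. *Flt1*, VEGF receptor 1, was lower (-1.18, adjusted p = 0.0311), and the co-receptor *Nrp1* was higher (0.68, adjusted p = 0.00788). Against ND+veh, HFD+eRapa was lower in 4 (*Gdf2* -2.22, *Bmp10* -1.88, *Vegfb* -1.16 and *Id3* -0.75) and higher in *Nrp1* (0.56). *Acvrl1* (1.86) and *Bmpr2* (0.52) rose on the HFD with vehicle, and *Vegfb* (-1.09) and *Id3* (-0.89) fell. *Id3*, a target of BMP signaling, was the most abundant of this list, with a mean of 95.1 ± 29.8 FPKM in ND+veh, 49.9 ± 18.2 in HFD+veh and 51.4 ± 13.3 in HFD+eRapa, and hepatocytes express it as well.

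Position along the sinusoid was read from short lists of periportal and pericentral endothelial genes. On the HFD with vehicle 5 of 6 periportal genes rose (median 1.44), among them *Msr1* (3.06), a scavenger receptor also found on macrophages, *Adgrg6* (2.98), and *Efnb2* (1.45), the arterial ephrin ligand. *Adgrg6* lay near the floor in ND+veh, with a median of 0.36 CPM. Of 7 pericentral genes 1 was higher, *Fabp4* (3.14), a fatty acid carrier, and *Rspo3* and *Wnt2*, the endothelial signals that set hepatocyte zonation, were at -0.01 and 0.10. With eRapa on the HFD 6 of 6 periportal genes (median -1.61) and 5 of 7 pericentral genes (median -1.46) fell, and in HFD+eRapa against ND+veh 0 of 6 and 0 of 7 were called by edgeR (1 and 4 at an unadjusted p under 0.05). The difference between the periportal and the pericentral list was not tested.

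Genes of continuous vessels, which sinusoids gain when they lose their pores, rose on the HFD in 4 of 5 tested (*Vwf* 2.72, *Ly6c1* 2.47, *Cd34* 2.36 and *Fbln5* 1.48, median 2.36). These 4 lay near the floor in ND+veh, with medians of 0.70, 0.07, 0.38 and 0.71 CPM in that order. The most abundant gene of the list, *Plvap* (median 19.0 CPM in ND+veh), did not pass the edgeR test on the HFD with vehicle (0.44, adjusted p = 0.462). All 5 fell with eRapa on the HFD (median -2.31), led by *Ly6c1* (-4.29), and *Plvap*, a protein of endothelial diaphragms, was the 1 gene below ND+veh (-1.34). *Cd34* and *Ly6c1* are carried by blood cells as well. Of 3 activation genes tested, *Vcam1* rose on the HFD with vehicle (2.68) and fell with eRapa (-4.02), and *Icam1* in HFD+eRapa was below both HFD+veh (-1.87) and ND+veh (-1.69).

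**Figure D5:**
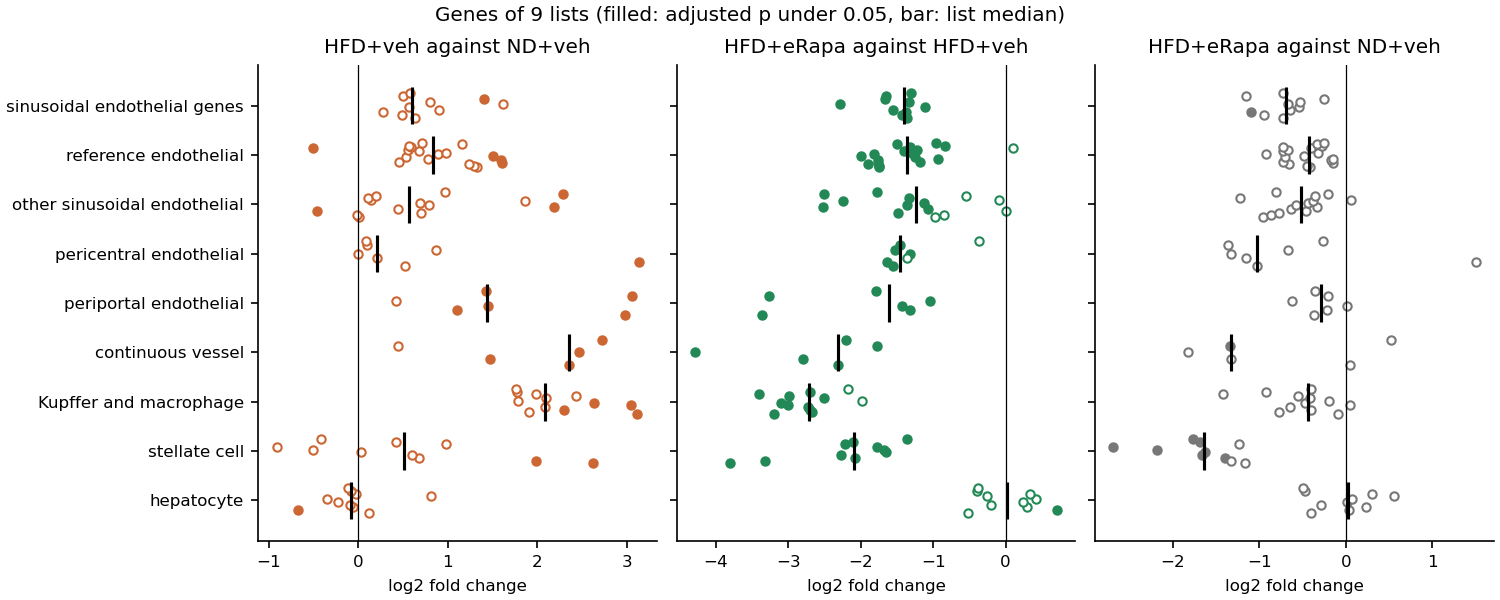
Log2 fold change of each tested gene of 9 lists in the 3 comparisons (edgeR), 1 point per gene, filled where the adjusted p was under 0.05, with a bar at the list median. In HFD+eRapa against HFD+veh the endothelial, macrophage and stellate lists have medians from -2.72 to -1.23 and the hepatocyte list has 0.02.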

How the data were processed

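RNA-seq libraries from isolated hepatocytes were analysed from tables of all 24 samples, all marked batch 1 in the labels. The deposited counts per gene were made by the authors with STAR (mm10, GENCODE), SAMtools 1.1.0 and HTSeq 0.11.2, and the deposited FPKM values with Cufflinks. The strand setting was not given in the sources used here. Counts between genes of different length were not compared, and FPKM was used for that. Every column was mapped to a sample by its name.

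Genes were filtered by filterByExpr, scaled by TMM and tested with the quasi-likelihood test of edgeR 4.0.16 (R 4.3.3) on 3 groups in 1 fit, with p-values adjusted over 13847 genes by the Benjamini-Hochberg method and a threshold of 0.05. The study used DESeq2, which was run as an alternative (1.42.0), as was limma 3.58.1. CPM values use the TMM scaling. Scripts were tested on simulated data. Replicates were compared: the smallest chi-square per degree of freedom among 85 within-group pairs was 11.3, so no library was counted as a repeat of another. The depth was 17739252 to 25945134 counts per library.

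The 10 genes and the 13 other lists (128 genes) were chosen with earlier results of these data known. Named genes are all 10, from each list up to 3 called genes with the largest change, the 2 with the highest mean FPKM, the 5 outside genes with the highest mean correlation among genes with a mean log2 CPM of at least 3, and marker genes named for the check of cell types. Genes beyond these were named after their values were seen. Gene positions are from GENCODE on GRCm38 (mm10), and promoters from RefSeq on GRCm38.p6.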

Additional observations from a re-analysis of the deposited data

Results flagged for a closer look

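The share of each of the 10 genes in their summed CPM was checked for single libraries far from the rest of their group, by the gap to the nearest other library over the range of the group (Dixon's 95% limits, groups of 7 to 9). Of 60 groups of values checked, which also include the level of each gene, 6 were flagged, where chance gives about 1 in 20, or 3. *Fcgr2b* held 13.5% in ND+veh replicate 8 (10.3 to 11.5% in the others), 17.4% in HFD+veh replicate 6 (11.96 to 12.8% in the others) and 16.0% in HFD+eRapa replicate 2 (10.2 to 12.6% in the others). *Eng* held 6.75% in HFD+veh replicate 6, against 11.7 to 13.5% in the others. *Kdr* held 9.87% in ND+veh replicate 3 (11.4 to 12.6% in the others) and 14.4% in HFD+veh replicate 2 (10.2 to 11.5% in the others). The 3 libraries flagged for *Fcgr2b* also had the highest summed macrophage level of their groups (1569, 5886 and 1230 CPM), and the part of that in the shares was not tested.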

How the results depend on the processing

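Directions of the 10 genes held in every fit without a covariate, except *Eng* in HFD+veh against ND+veh (-0.044 without HFD+veh replicate 4, to 0.43 without HFD+veh replicate 1). The number called lower in HFD+eRapa against HFD+veh was 10 with DESeq2 or its size factors, 6 with limma voom, 8 with only these groups, 7 with no count filter, 10 and 9 in limma on log2(FPKM + 1) and log2(FPKM + 0.1), 6 on FPKM with no filter, 0 with any covariate, 4 without the pair of libraries that stood apart (added after seeing the data), and 4 to 10 with 1 library left out. On the HFD with vehicle 2 genes were higher with DESeq2 (*Pecam1*, *Lyve1*), 0 with no count filter, limma voom, any FPKM fit, either planned covariate or without the pair, and 0 to 2 with 1 library left out, and 3 were lower with the covariate without *S1pr1*. For HFD+eRapa against ND+veh 0 were lower with no filter (counts or FPKM) or without the pair, 2 with DESeq2, 3 with limma voom or only these groups, 2 with the reference covariate, 3 with it without *S1pr1*, 5 with the immune covariate, and 0 to 3 with 1 library left out, and 1 was higher with either reference covariate. Lower calls over all genes tested in HFD+eRapa against HFD+veh changed too. They were 3737 of 20303 with DESeq2, 2133 of 13847 with limma voom and 2342 of 13289 with only these groups. With no count filter they were 3379 of 30483. The cause of these changes was not tested. On log2(FPKM + 0.1) the median of all genes was -0.10 and -0.12 in the HFD+eRapa comparisons.

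Same-numbered libraries were alike on average in HFD+veh against ND+veh only, and the fit used throughout had no replicate block. The mean correlation of same-numbered libraries was 0.316, -0.245 and -0.203 in the 3 comparisons, with 5 of 7, 2 of 7 and 2 of 8 pairs over 0.1. With the number as a replicate block, 0 of the 10 genes were called in HFD+veh against ND+veh, 3 lower in HFD+eRapa against HFD+veh (*Stab1*, *Eng*, *Dnase1l3*) and 0 in HFD+eRapa against ND+veh. Of the 13847 genes tested, this fit called 1436 higher and 1025 lower in the first of these comparisons. It called 1073 higher and 1459 lower in the second, and 912 higher and 663 lower in the third.

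In HFD+veh against ND+veh the direction turned with the reference covariate for *Stab1* -0.41, *Stab2* -0.34, *Clec4g* -0.17, *Oit3* -0.20, *Kdr* -0.20, *Fcgr2b* -0.051, *Eng* -0.45 and *Dnase1l3* -0.27, with the immune covariate (macrophage, lymphocyte and neutrophil lists) for *Stab1* -0.64, *Stab2* -0.57, *Clec4g* -0.41, *Lyve1* -0.11, *Oit3* -0.46, *Kdr* -0.41, *Fcgr2b* -0.28, *Eng* -0.60 and *Dnase1l3* -0.44, with the reference covariate without *S1pr1* for *Stab1* -0.45, *Stab2* -0.37, *Clec4g* -0.21, *Oit3* -0.23, *Kdr* -0.23, *Fcgr2b* -0.079, *Eng* -0.47 and *Dnase1l3* -0.29. For HFD+eRapa against HFD+veh it turned with the reference covariate for *Stab2* 0.32, *Clec4g* 0.22, *Lyve1* 0.16, *Oit3* 0.46, *Kdr* 0.36, *Fcgr2b* 0.18, *Eng* 0.00064, *Pecam1* 0.14 and *Dnase1l3* 0.013, with the immune covariate (macrophage, lymphocyte and neutrophil lists) for *Stab2* 0.089, *Clec4g* 0.0080, *Oit3* 0.21 and *Kdr* 0.16, with the reference covariate without *S1pr1* for *Stab2* 0.17, *Clec4g* 0.092, *Oit3* 0.31, *Kdr* 0.24 and *Fcgr2b* 0.021. For HFD+eRapa against ND+veh it turned with the reference covariate for *Clec4g* 0.044, *Lyve1* 0.41, *Oit3* 0.26, *Kdr* 0.16, *Fcgr2b* 0.13 and *Pecam1* 0.52, with the reference covariate without *S1pr1* for *Lyve1* 0.19, *Oit3* 0.082, *Kdr* 0.0095 and *Pecam1* 0.32.

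All calls rest on depths of 17739252 counts or more, and only *Lyve1* had counts as low as 15.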
